A study of Mus musculus with 6 samples.

Results

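The 38 genes described here carry iron and haem through the cell: they take iron up, store it, export it and sense it, and they build and break down haem. They were chosen by gene symbol from what the genes are known to do, and 37 of the 38 were found among the 21115 probe sets of an Affymetrix expression array, 1 probe set per gene. Ftl1, the ferritin light chain gene, was not analysed here. The series compared 3 samples of primary hepatocytes that received recombinant BMP2 (50 ng/ml, 24 hours) with 3 control samples that did not. BMP2, a bone morphogenetic protein, is a growth factor whose receptors phosphorylate SMAD transcription factors. All cells came from C57BL/6 mice, 3 animals in all per the design text, and no genetic change is named. Both groups were plated on collagen, attached in serum with dexamethasone, and then kept without serum and, in the last medium, without dexamethasone. BMP2 was dissolved in dilute hydrochloric acid, and the labels do not say whether the control cells received that solvent. The age and sex of the mice are not given. Hepatocytes in culture are separated from the neighbouring cells that supply BMP ligands in the liver, and how many such cells remained here was not tested.

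Hepatocytes are the main iron store of the body and the source of hepcidin, the hormone that closes the iron exporter ferroportin. Inside cells, iron regulatory proteins bind stem-loops in the mRNAs of ferritin, ferroportin and the transferrin receptor, so iron load acts on these genes after transcription as well as through it. Haem is made by a chain of enzymes that starts and ends in the mitochondrion, and haem oxygenase opens its ring and frees the iron. The comparison made here is of the genes that handle iron and haem in hepatocytes with and without BMP2.

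The values are log2 expression values, so a difference of 1 is a 2-fold change, and they ranged from 6.35 to 14.02 over the table. The sample medians lay between 6.80 and 6.81. Levels under 7 lay near the low end of this range and levels over 13 near its high end, and how far changes are compressed at either end was not tested. Of the 37 measured genes, 3 (Cybrd1, Heph and Blvra) averaged below 7 and 5 (Trf, Hpx, Hp, Fth1 and Cp) averaged above 13. Hamp, which encodes hepcidin, served as the check that the cells responded. It stood at 13.54, 13.51 and 13.39 in BMP2 samples, against 8.30, 7.50 and 7.80 in controls, a difference of 5.62 ± 0.21 (log2, ± SE, limma adjusted p = 0.0027). Markers of the hepatocyte were bright (Alb averaged 13.78 in BMP2 and 13.81 in control samples), although Cps1 and Asgr1 averaged below 7 over the 6 samples. Ttr, another hepatocyte product, was higher in BMP2 samples by 0.68 ± 0.11 (SE, limma adjusted p = 0.0725, or 0.0166 with the replicate number, taken to mark the mouse, as a block). Apoa1 (0.32 ± 0.10) and Asgr1 (0.14 ± 0.05) were also higher without overlap (adjusted p = 0.278 and 0.363). Summed on the linear scale, the 7 hepatocyte markers stood at 35580 to 39620 in BMP2 and 31760 to 34890 in control samples. The mean log2 level of the 7 overlapped, at 10.43 to 10.61 in BMP2 and 10.30 to 10.44 in control samples. Of the 7 markers, 5 lay above 0 and 2 (Alb and Tat) below. All 4 measured erythroid and all 7 leukocyte markers averaged under 7, as did 7 of 8 Kupffer cell, 6 of 7 endothelial and 5 of 6 stellate cell markers (the exceptions were Cd68, Cdh5 and Col1a1). Of 4 cholangiocyte markers Epcam and Krt7 were under 7, while Krt19 differed by -0.51 ± 0.08 (adjusted p = 0.0725) and Sox9 by 0.46 ± 0.10 (0.144, or 0.0389 with the block). The 4 cholangiocyte markers summed to 1799 to 1919 in BMP2 and 1464 to 1740 in control samples. Of these 4, 1 (Sox9, the brightest) lay above 0 and 3 below. The mean log2 level of the 4 overlapped, at 7.97 to 8.01 in BMP2 and 7.93 to 8.08 in control samples. The sums of the remaining marker lists overlapped between the groups. The part of these marker differences in the results below was not tested. In a mixed RNA sample, fewer cells of a type and less RNA per cell cannot be told apart.

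None of the 37 measured iron and haem genes passed the threshold in limma (adjusted p below 0.05 over all probe sets), where 1.19% of all probe sets and 2.27% of the 10557 brighter ones (mean above the median probe set) did. The differences were small: the largest were 0.43 for Hmox1 and -0.41 for Lcn2, and no gene of the 37 differed by more than 0.5. Of the 37, 24 lay above 0 and 13 below, with a median of 0.01 on the log2 scale, against a median of 0.0007 over all probe sets. The median size of the difference, sign ignored, was 0.06 for the 37 genes, against 0.014 for all probe sets and 0.05 for the brighter ones, to which 34 of the 37 belong. At an unadjusted limma p below 0.05 there were 4 higher and 6 lower genes, 27.0% of the 37, where 12.5% of all probe sets and 21.8% of the brighter ones reached that level. The same 10 genes (10 of 10 shared) were those whose BMP2 and control samples did not overlap, a property of 16.7% of all probe sets and 24.2% of the brighter ones. These shares lay near those of the brighter probe sets and are not read as a result about iron genes.

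**Figure D1:**
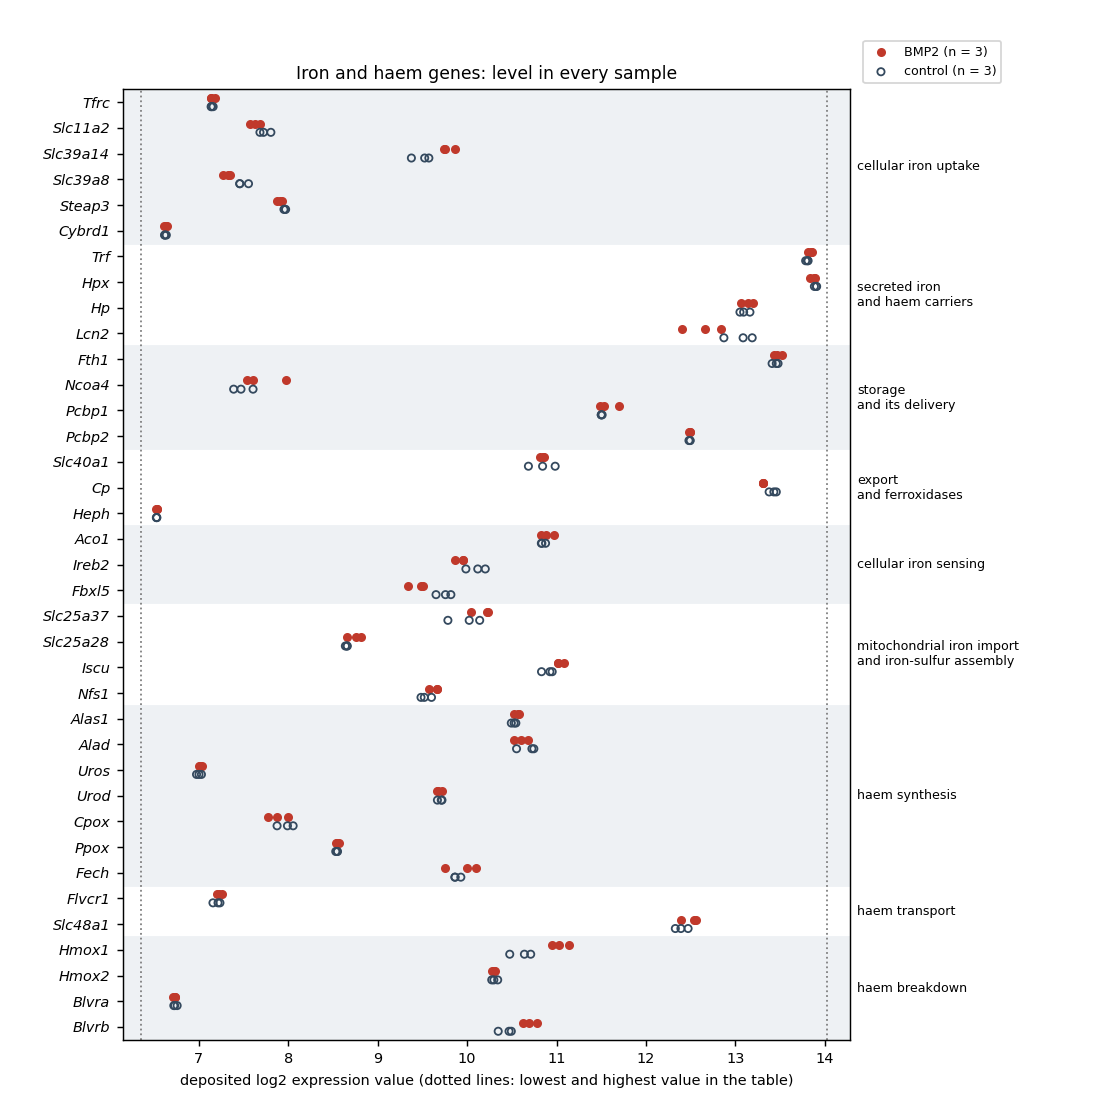
Deposited log2 expression of the 37 measured iron and haem genes (x axis) in every sample, with BMP2 samples (filled, n = 3) above control samples (open, n = 3) and genes grouped by role. The groups of Hmox1, Blvrb, Slc39a14, Iscu, Slc39a8, Steap3, Lcn2, Cp, Ireb2 and Fbxl5 do not overlap, while Heph and Cybrd1 lie near the low end and Trf and Hpx near the high end of the scale.

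Samples of the same replicate number deviated together and were taken to come from the same mouse, so the comparison was also made within mice, with the replicate number as a block. In that model 4 of the 37 genes passed, 1 higher (Blvrb) and 3 lower (Fbxl5, Lcn2 and Slc39a8), which is 10.8% of them, against 3.32% of all probe sets and 6.54% of the brighter ones. Blvrb differed by 0.26 (blocked limma adjusted p = 0.0241), Fbxl5 by -0.30 (0.0170), Lcn2 by -0.41 (0.0252) and Slc39a8 by -0.17 (0.0483). In the model without the block the adjusted p values of these 4 genes were 0.130, 0.135, 0.305 and 0.121. With both samples of any 1 replicate number left out, the blocked model called none of the 4, and it called no probe set at all, Hamp included. The 3 within-mouse differences shared a sign in 21 of the 37 genes. They did so in 7760 of all 21115 probe sets and in 5133 of the 10557 brighter ones. A shared sign is therefore not read below as a result about iron genes.

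Iron enters hepatocytes bound to transferrin or as free iron, and the 6 uptake genes did not move together: 3 lay above 0, 3 below, and none passed. Slc39a14 encodes ZIP14, the main carrier of iron not bound to transferrin in the liver. It stood at 9.75, 9.75 and 9.86 in BMP2 samples, against 9.38, 9.57 and 9.53 in controls. Every BMP2 value lay above every control value, with a difference of 0.29 ± 0.06 (SE), a 95% interval from 0.14 to 0.45 and a limma adjusted p of 0.127 (0.0822 with the block). Slc39a8 encodes ZIP8, a related metal carrier, and lay in the opposite direction at 7.35, 7.33 and 7.27 in BMP2 samples, against 7.56, 7.46 and 7.46 in controls. Its BMP2 values were all lower, and the 3 within-mouse differences were -0.21, -0.13 and -0.18. The difference was -0.17 ± 0.04 (SE, limma adjusted p = 0.121), a fold change of 0.886, and its 95% interval was -0.26 to -0.08 without the block and -0.23 to -0.12 with it (adjusted p = 0.0483).

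Tfrc, the transferrin receptor that brings in most transferrin-bound iron in many cells, stood at 7.14, 7.18 and 7.14 in BMP2 samples, against 7.14, 7.14 and 7.16 in controls. The groups overlapped, and the 95% interval of the difference ran from -0.03 to 0.04. Slc11a2, the endosomal iron carrier DMT1, averaged 7.63 ± 0.06 in BMP2 and 7.74 ± 0.06 in control samples (SD, n = 3 each), a difference of -0.11 (interval -0.22 to 0.001, limma adjusted p = 0.406). Steap3, the endosomal reductase that prepares iron for that carrier, differed by -0.06 ± 0.02 (SE, adjusted p = 0.202), with no overlap of its groups. Cybrd1, a reductase best known from the intestine, stood at 6.63 in BMP2 and 6.62 in control samples.

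Among the 4 genes of secreted carriers Lcn2 was the one whose groups did not overlap. Lcn2 encodes lipocalin 2, which binds bacterial iron chelators and is made by the liver in inflammation. Its level was 12.83, 12.66 and 12.40 in BMP2 samples, against 13.19, 13.09 and 12.87 in controls. All BMP2 samples were lower, and replicate 3 was the lowest of its group in both. The difference of -0.41 had an SE of 0.14 without the block and 0.03 with it, and the within-mouse differences were -0.35, -0.42 and -0.47. The limma adjusted p was 0.305 without the block and 0.0252 with it, and the fold change was 0.750. With the replicate number as a random effect the adjusted p was 0.119.

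The other 3 carriers are among the most abundant products of the hepatocyte and sat at the bright end of the array. Trf, transferrin, averaged 13.84 ± 0.02 in BMP2 and 13.80 ± 0.01 in control samples, and Hpx, the haem scavenger haemopexin, averaged 13.87 ± 0.03 in BMP2 and 13.90 ± 0.01 in control samples (SD, n = 3 each). Hp, haptoglobin, which captures free haemoglobin, averaged 13.13 ± 0.06 in BMP2 and 13.10 ± 0.06 in control samples (SD, n = 3 each). The groups of each overlapped, and the 3 differences lay between -0.03 and 0.03, with limma adjusted p from 0.475 to 0.920.

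No gene of iron storage passed in either model. Fth1, the ferritin heavy chain with its iron-oxidising site, stood at 13.52, 13.46 and 13.43 in BMP2 samples, against 13.48, 13.46 and 13.41 in controls. The difference was 0.02 ± 0.03 (SE), and the 95% interval as a fold change ran from 0.962 to 1.07. Pcbp1 and Pcbp2 encode RNA-binding proteins that also hand iron to ferritin. Pcbp2 averaged 12.49 in both groups (difference 0.0007 ± 0.009, SE), and Pcbp1 differed by 0.07 ± 0.06, with 1 BMP2 sample (11.70, replicate 2) above the other values of 11.49 to 11.54. Ncoa4, the receptor that sends ferritin to the lysosome, had values of 7.54, 7.98 and 7.61 in BMP2 samples, against 7.61, 7.47 and 7.39 in controls. Its groups overlapped, its within-mouse differences of -0.07, 0.51 and 0.22 did not share a sign, and its interval (-0.12 to 0.55) was among the widest of the 37 genes.

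Export through ferroportin is the step that hepcidin acts on, and the mRNA of the exporter showed no detectable difference. Slc40a1, the ferroportin gene, stood at 10.84, 10.82 and 10.86 in BMP2 samples, against 10.69, 10.84 and 10.98 in controls. The BMP2 values fell within the spread of the controls, and the 95% interval of the fold change ran from 0.875 to 1.15. Cp, ceruloplasmin, the copper ferroxidase of plasma that loads exported iron onto transferrin, stood at 13.31 in each BMP2 sample, against 13.38, 13.46 and 13.43 in controls. Its groups did not overlap, with a difference of -0.11 ± 0.02 (SE, 95% interval -0.17 to -0.06, within-mouse differences -0.07, -0.15 and -0.12, limma adjusted p = 0.106, or 0.103 with the block). The adjusted p was 0.0498 with the replicate number as a random effect. Heph, the intestinal homologue of ceruloplasmin, stood at 6.53 in both groups, near the lowest value of the table.

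Of the 3 genes of iron sensing, 2 lay below their controls in every mouse. A sign shared by all 3 mice was also found in 5133 of the 10557 brighter probe sets. Fbxl5 encodes the iron-binding subunit of a ubiquitin ligase that degrades iron regulatory protein 2, and Ireb2 encodes that protein. Fbxl5 stood at 9.48, 9.51 and 9.33 in BMP2 samples, against 9.76, 9.82 and 9.65 in controls. Every BMP2 value was lower, and the within-mouse differences were -0.28, -0.31 and -0.32, with a blocked 95% interval from -0.34 to -0.26. The fold change was 0.812, with a limma adjusted p of 0.135 without the block, 0.0170 with it and 0.0445 with the replicate number as a random effect. Ireb2 stood at 9.86, 9.95 and 9.95 in BMP2 samples, against 9.99, 10.12 and 10.20 in controls. Its groups did not overlap either, with a difference of -0.18 ± 0.06 (SE), an adjusted p of 0.322 and one of 0.0930 with the block, and its within-mouse differences were -0.12, -0.17 and -0.25. Aco1, iron regulatory protein 1, which doubles as cytosolic aconitase when it carries an iron-sulfur cluster, averaged 10.89 ± 0.07 in BMP2 and 10.85 ± 0.03 in control samples (SD, n = 3 each, adjusted p = 0.817).

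**Figure D2:**
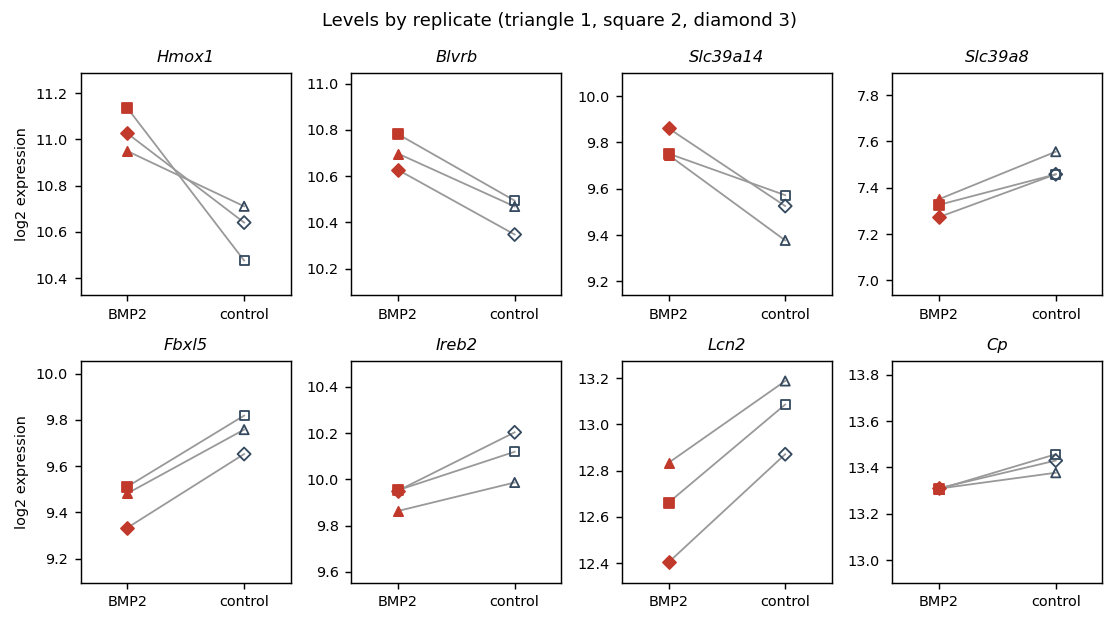
Log2 expression of 8 genes in BMP2 (left, filled) and control (right, open) samples, with a line joining samples of the same replicate number and the same height of scale in each panel. Fbxl5, Lcn2 and Blvrb run nearly in parallel in the 3 replicates, while Hmox1 and Slc39a14 differ more between replicates.

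The 4 genes that bring iron into the mitochondrion or build iron-sulfur clusters there all lay above 0 in each of the 3 mice, by small amounts, and none passed. One sign in all 3 mice was also found in 5133 of the 10557 brighter probe sets and 7760 of all 21115. Slc25a37 and Slc25a28 encode mitoferrin 1 and mitoferrin 2, the carriers of the inner membrane. Slc25a37 had 10.22, 10.24 and 10.04 in BMP2 samples, against 10.14, 10.02 and 9.79 in controls, overlapping groups with a difference of 0.18 ± 0.11 (SE, limma adjusted p = 0.630). Slc25a28 differed by 0.09 ± 0.04 (adjusted p = 0.507). Iscu, the scaffold on which clusters are assembled, stood at 11.02, 11.08 and 11.01 in BMP2 samples, against 10.95, 10.93 and 10.83 in controls. Its groups did not overlap, and the difference was 0.14 ± 0.04 (SE, adjusted p = 0.227). Nfs1, the desulfurase that supplies the sulfur, differed by 0.10 ± 0.04 (SE, adjusted p = 0.444).

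The 7 genes of haem synthesis had differences between -0.09 and 0.06 and limma adjusted p from 0.602 to 0.975. Alas1, the first and rate-limiting enzyme in the liver, stood at 10.56, 10.58 and 10.53 in BMP2 samples, against 10.49, 10.54 and 10.53 in controls. The groups overlapped, and the 95% interval of the fold change ran from 0.990 to 1.06. Alad, which joins the precursors into the pyrrole ring, averaged 10.60 ± 0.08 in BMP2 and 10.67 ± 0.11 in control samples (SD, n = 3 each). Uros and Urod, which form and trim the macrocycle, differed by 0.01 ± 0.02 and -0.01 ± 0.02 (SE). Cpox, the next enzyme in order, differed by -0.09 ± 0.07 and was lower in all 3 mice (-0.10, -0.12 and -0.06), with a blocked adjusted p of 0.0973. Ppox, which oxidises the ring, stood at 8.55 in BMP2 and 8.54 in control samples. Fech, ferrochelatase, which inserts the iron, had 10.00, 10.10 and 9.75 in BMP2 samples, against 9.86, 9.93 and 9.87 in controls. Replicate 3 of the BMP2 group lay below all controls and the other two BMP2 samples above them, and the interval was -0.17 to 0.30.

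Of the 4 genes of haem breakdown, Hmox1 and Blvrb lay above their controls in every mouse. The other 2 stood at about the same level in both groups. Among the 10557 brighter probe sets, 5133 shared a sign in all 3 mice as well. Hmox1 encodes the inducible haem oxygenase, which releases iron, carbon monoxide and biliverdin from haem. It stood at 10.95, 11.13 and 11.03 in BMP2 samples, against 10.71, 10.48 and 10.64 in controls. All BMP2 values were higher, with a difference of 0.43 ± 0.08 (SE), a fold change of 1.34 (95% interval 1.17 to 1.54) and a limma adjusted p of 0.0946. The within-mouse differences of 0.24, 0.66 and 0.38 were unequal, and the adjusted p with the block was 0.146. It passed with an intensity trend in the variance prior (0.0331, or 0.0279 with robust estimation) and when only the brighter probe sets were tested (0.0335).

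Blvrb encodes a flavin and biliverdin reductase. Its level was 10.70, 10.78 and 10.63 in BMP2 samples, against 10.47, 10.49 and 10.35 in controls. The groups did not overlap, the within-mouse differences were 0.23, 0.29 and 0.28, and the blocked 95% interval ran from 0.22 to 0.31. The limma adjusted p was 0.130 without the block and 0.0241 with it, at a fold change of 1.20. Hmox2, the constitutive haem oxygenase, averaged 10.30 ± 0.02 in BMP2 and 10.31 ± 0.03 in control samples (SD, n = 3 each), with an interval of the difference from -0.06 to 0.04. Blvra, the other biliverdin reductase, stood at 6.73 in BMP2 and 6.74 in control samples, near the low end. Hmox1 is also strong in macrophages of the liver. The Kupffer cell markers, 8 of 8 measured, had a summed level on the linear scale of 824 to 859.2 in BMP2 and 846.8 to 950.7 in control samples, with 7 of the 8 near the low end, Clec4f and Adgre1 among them. Cd68 stood at 7.51, 7.44 and 7.27 in BMP2 samples, against 8.10, 7.68 and 7.46 in controls, and its part in these results was not tested.

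The 2 genes of haem transport lay above 0 in each mouse, where 5133 of the 10557 brighter probe sets also shared a sign. Slc48a1, the haem carrier HRG1 of the lysosome, averaged 12.50 ± 0.10 in BMP2 and 12.40 ± 0.07 in control samples (SD, n = 3 each, difference 0.10, limma adjusted p = 0.652). Flvcr1, known as a haem exporter of the plasma membrane, differed by 0.03 ± 0.03 (SE, adjusted p = 0.840) at a level of 7.23 in BMP2 and 7.20 in control samples.

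**Figure D3:**
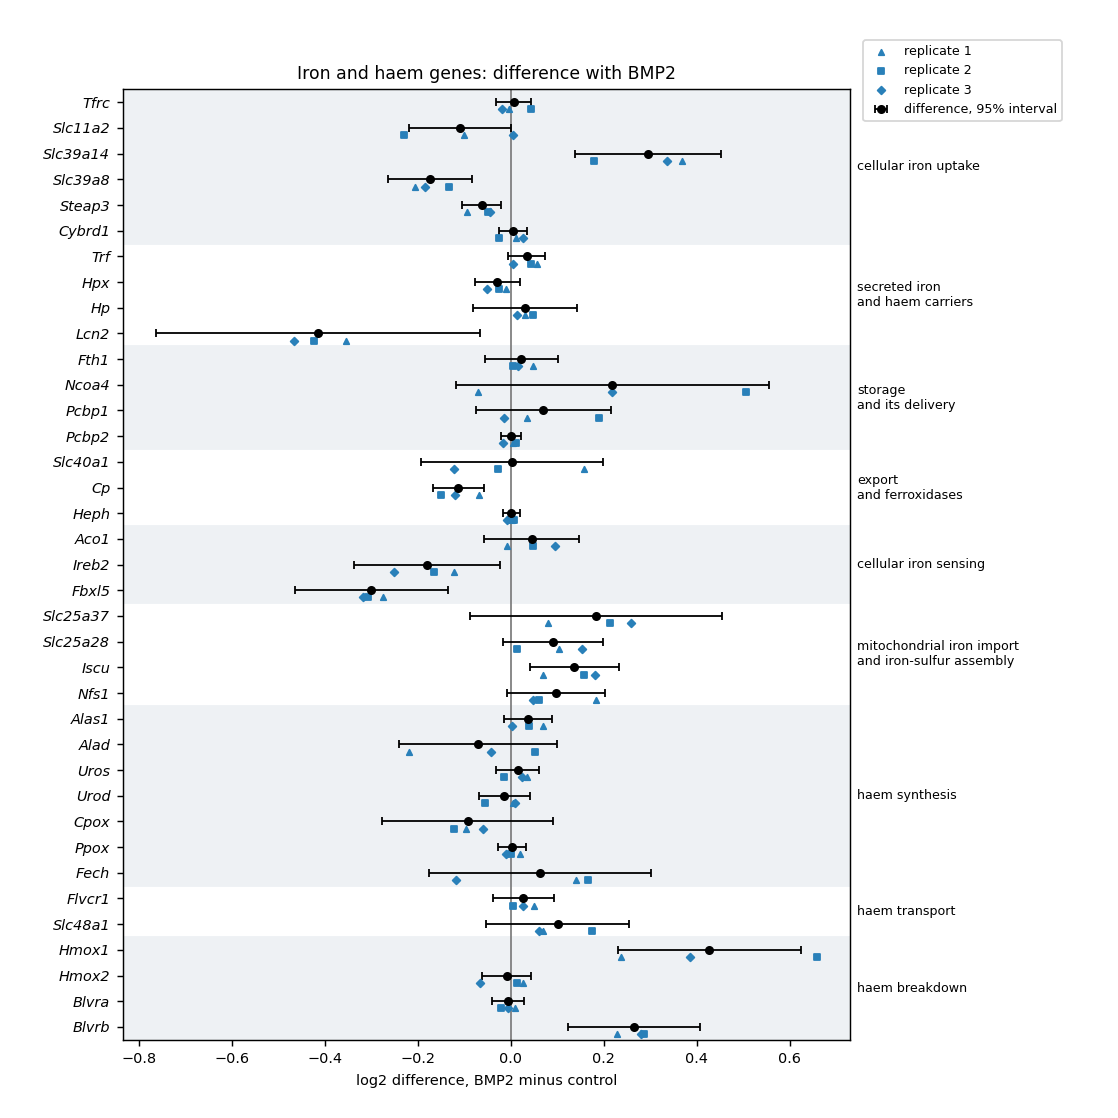
Log2 difference, BMP2 minus control, of the 37 genes by role, with the 95% interval of the limma model without the block (black) and the difference within each replicate number (blue). The intervals of 34 genes lie within 0.5 of 0, and those of Lcn2, Ncoa4 and Hmox1 reach beyond.

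Several of these genes come as pairs of relatives with separate roles, and 5 such pairs were compared by how far the difference with BMP2 differed between the 2 genes in the same samples. The gap was 0.44 for Hmox1 over Hmox2, 0.47 for Slc39a14 over Slc39a8 and 0.23 for Aco1 over Ireb2. In each of these 3 pairs the BMP2 and control samples did not overlap, and all 3 mice had the same sign. Each of the 3 holds a gene already described as not overlapping, so this is not separate support. Hmox1 alone differed by 0.43 and Hmox2 by -0.01. The exact two-sided permutation test gave p = 0.1 for each, which is the smallest that 3 against 3 samples allow, and 0.167 after adjustment over the 5 pairs. The gap was 0.09 for Slc25a37 over Slc25a28 (exact permutation p = 0.6) and 0.07 for Pcbp1 over Pcbp2 (p = 0.3), and the samples of both overlapped. Pcbp1 over Pcbp2 also had the same sign in all 3 mice (0.03, 0.18 and 0.002). No pair could pass the threshold in this exact test, whose smallest p is 0.1.

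Promoters are shown for Hamp, as the probe set with the largest difference of all, and for the 3 genes called with the block that have an entry in the RefSeq table used (GRCm38.p6). Each is the 250 bases before the annotated start, read 5′ to 3′ on the gene's strand, and the most upstream start was taken for Slc39a8 and Blvrb, which have 2 each. Capitals mark matches on either strand to GGCGCC (a BMP response element), TTCNNNGAA (a STAT site), TGACNNNGC (an antioxidant response element) or ACGTG (a hypoxia response element). Hamp lies at chr7:30944030-30944279 (minus strand), Lcn2 at chr2:32387740-32387989 (minus), Slc39a8 at chr3:135825029-135825278 (plus) and Blvrb at chr7:27447728-27447977 (plus).
Hamp: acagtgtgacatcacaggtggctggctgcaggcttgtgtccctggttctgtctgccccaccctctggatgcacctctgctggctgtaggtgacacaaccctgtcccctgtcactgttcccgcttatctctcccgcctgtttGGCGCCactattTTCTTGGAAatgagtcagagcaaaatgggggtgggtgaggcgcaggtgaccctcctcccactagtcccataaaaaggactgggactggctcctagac
Lcn2: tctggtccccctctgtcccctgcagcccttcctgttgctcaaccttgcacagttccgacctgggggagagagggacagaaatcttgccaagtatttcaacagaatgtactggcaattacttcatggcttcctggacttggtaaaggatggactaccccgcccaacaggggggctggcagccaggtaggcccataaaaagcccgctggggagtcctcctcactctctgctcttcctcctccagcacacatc
Slc39a8: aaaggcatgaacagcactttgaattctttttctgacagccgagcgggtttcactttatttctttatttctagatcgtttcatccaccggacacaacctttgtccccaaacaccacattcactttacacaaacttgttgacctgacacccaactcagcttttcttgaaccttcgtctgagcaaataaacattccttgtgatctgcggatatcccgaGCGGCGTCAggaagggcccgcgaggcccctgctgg
Blvrb: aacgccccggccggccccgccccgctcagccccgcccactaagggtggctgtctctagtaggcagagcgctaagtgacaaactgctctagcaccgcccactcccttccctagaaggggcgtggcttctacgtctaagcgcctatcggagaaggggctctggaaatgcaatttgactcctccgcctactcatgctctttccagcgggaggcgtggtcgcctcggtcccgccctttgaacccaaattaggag

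The Hamp window held GGCGCC at positions -109 to -104 and TTCTTGGAA at -97 to -89 from the start, and none of the 3 others held either. The Slc39a8 window held 1 match to the antioxidant element, GCGGCGTCA on the strand shown, at -35 to -27, and the windows shown for Lcn2 and Blvrb held no match to the 4 motifs. The second annotated windows of Slc39a8 and Blvrb, not shown, held 2 and 1 matches to ACGTG. Over all 32851 such windows of the table, 9.59% held GGCGCC, 7.02% TTCNNNGAA, 10.2% TGACNNNGC and 16.6% ACGTG. Of the 38 genes 26 had an entry, with 42 windows in all. Of these windows 5 (11.9%) held GGCGCC, in Tfrc, Cybrd1, Hmox2 and Urod, and 1 (2.38%) held TTCNNNGAA, in Alas1. TGACNNNGC was in 6 windows (14.3%) and ACGTG in 12 (28.6%), which belong to 10 genes. A match is a run of letters and does not show that a factor binds there.

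Beyond these 38, 3 further lists held genes of iron-sulfur assembly, haem handling and iron transport or storage, chosen by function with earlier results known. Of their 61 genes 55 were measured and named here, 2 rose, none fell and 53 did not pass in limma, and the median difference was 0.01. The 2 calls are 3.64% of the 55, against 1.19% of all probe sets and 2.27% of the brighter ones, to which 44 of the 55 belong. Lrp1, the endocytic receptor that takes up haem bound to haemopexin, stood at 11.26, 11.31 and 11.34 in BMP2 samples, against 10.90, 10.95 and 10.90 in controls. Its values rose in all 3 mice, by 0.39 ± 0.03 (SE, 1.31-fold, limma adjusted p = 0.0090, or 0.0233 with the block). The adjusted p was 0.0562 without control replicate 1, 0.0568 without control replicate 2 and 0.0528 without BMP2 replicate 2, and Lrp1 passed in the other 3 fits with a sample left out. Lrp1 also clears many other ligands, among them lipoprotein remnants.

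Fdx1, a ferredoxin that passes electrons in the mitochondrion, stood at 7.51, 7.47 and 7.51 in BMP2 samples, against 7.31, 7.33 and 7.34 in controls. The groups did not overlap and the gene rose by 0.17 ± 0.02 (SE, limma adjusted p = 0.0263). With a sample left out it passed in 1 of 6 fits, without BMP2 replicate 2, and the adjusted p ran from 0.0407 to 0.123. Of 20 measured iron-sulfur genes 1 passed, of 15 haem genes 0 and of 20 iron transport and storage genes 1. Among the 15 haem genes 4 (26.7%) had an unadjusted limma p below 0.05, near the 21.8% of the brighter probe sets (12.5% of all), and 13 of the 15 are among the brighter ones. The smallest p were those of Hebp1, a haem-binding protein (0.12 ± 0.02, SE, adjusted p = 0.107), and Pgrmc1, a haem-binding membrane protein (0.22 ± 0.05, adjusted p = 0.141).

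The block added 3 genes to these lists, which made 5 higher and 0 lower, 9.09% of the 55, against 3.32% of all probe sets and 6.54% of the brighter ones. Glrx5, a glutaredoxin of cluster transfer, differed by 0.20 (blocked limma adjusted p = 0.0241), Hebp1 by 0.12 (0.0389) and Abcb6, a porphyrin transporter, by 0.43 (0.0428). Abcb6 averaged 8.24 ± 0.23 in BMP2 and 7.81 ± 0.14 in control samples (SD, n = 3 each), its groups did not overlap, and replicate 3 was the lowest of its group in both. Exoc6, which takes part in transferrin recycling, had the second smallest p of the transport list and differed by -0.12 ± 0.04 (SE, adjusted p = 0.233). Among the 9 genes of the hepcidin axis 4 rose (Hamp, Id1, Atoh8 and Smad7) and none fell. These are 44.4% of the 9, against 1.19% of all probe sets and 2.27% of the brighter ones. The list holds genes known as BMP targets and was chosen with earlier results known. The block added Bmp6, a BMP ligand, as lower (-0.26, blocked adjusted p = 0.0413), which made 55.6%, against 3.32% and 6.54%. Id1 and Atoh8, transcriptional regulators known as BMP targets, rose by 4.29 ± 0.09 and 4.26 ± 0.10 (SE). The smallest rise among the 4 called genes, 1.62 ± 0.07 (SE) for Smad7, exceeded every difference among the 37 iron and haem genes. Hjv differed by 0.65, Tmprss6 by 0.14, Hfe by 0.10 and Hamp2 by 0.07, and none of these was called. Tmprss6, Hfe, Hamp2 and Bmp6 differed less in size than Hmox1 (0.43) and Lcn2 (-0.41).

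**Figure D4:**
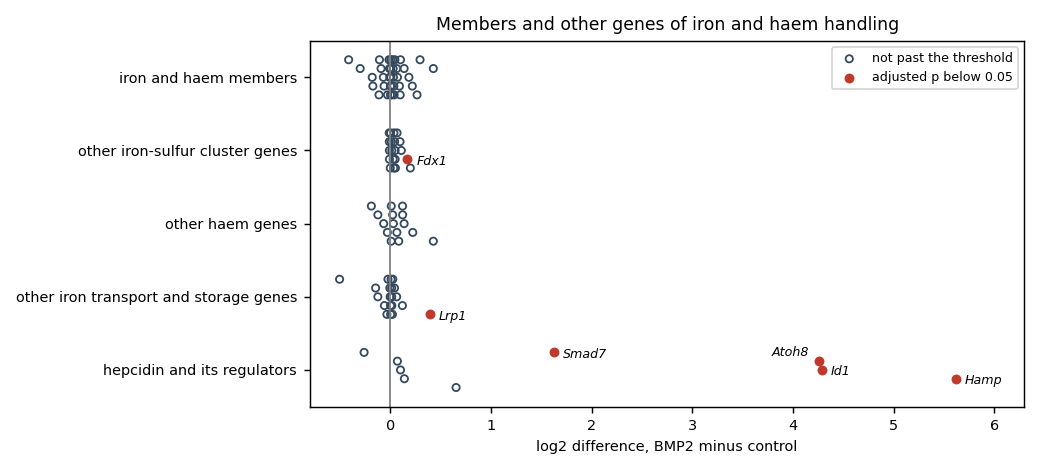
Log2 difference, BMP2 minus control, of the 37 members and of 4 other gene lists, with each point a gene and red points past the limma threshold. The members lie between -0.41 and 0.43, Lrp1 and Fdx1 are the genes past the threshold in the 3 lists below them, and Hamp lies at 5.62.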

How the data were processed

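The authors deposited log2 expression values, 1 for each probe set in each sample. Per the submitters' processing notes these come from RMA (robust multi-array average). The RMA version, probe grouping and filters are not given in the sources used here. Biotin-labelled cRNA was hybridised to an Affymetrix array per the labels' protocols. The values were tested as deposited. Probe sets were named from the platform annotation (20405 of 21115), and the 710 others were tested but not named.

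Each probe set's difference was tested two-sided by lmFit and eBayes of limma 3.58.1 (R 4.3.3), and calls had a Benjamini-Hochberg p below 0.05, adjusted across the 21115 probe sets. Standard errors and 95% intervals came from this model. An array gives no counts, and the 3 samples per group limit the precision. As the pairing check, each sample's deviation from its group mean was set against those of the other group: the correlation was 0.48, 0.58 and 0.61 for equal replicate numbers and -0.55 to 0.18 otherwise. The design text names 3 mice, so equal numbers were treated as pairs. The model with that number as a block is given where it changes a call.

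The 10557 brighter probe sets are those whose mean is above the median. All members are named, with Hamp, Id1 and Smad7, and, from each other list, genes past the threshold and the 2 with the smallest p. Further names (Abcb6, Bmp6, Steap4, Bach1, Hjv and cell markers) were chosen after their values were seen. Members and lists were chosen with earlier results of these data known. The comparison of gene pairs and the motif search were added later. The fit without the block was tested on simulated independent samples, with planted changes larger than any difference among the members. The blocked fit was not tested in that way.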

Additional observations from a re-analysis of the deposited data

How the results depend on the processing

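The count of members called was 0 in limma and stayed 0 after renewed quantile normalization, median centring, array weights, a threshold of 0.01 and in each fit without 1 sample. It was 4 with the replicate block and 4 with the number as a random block (Slc39a8, Cp, Fbxl5 and Blvrb). It was 1 (Hmox1) with an intensity trend, with the trend and robust estimation, with the brighter probe sets only and at a threshold of 0.10. Over all probe sets the count of 251 became 702 with the block, 700 with the random block, 438 with the trend, 468 with the robust trend, 449 among the brighter probe sets, 403 with array weights, 567 at 0.10 and 43 at 0.01, and it ranged from 30 to 223 in the fits without 1 sample, which used no block (53, 76 and 223 without BMP2 replicates 1, 2 and 3, and 60, 30 and 83 without control replicates 1, 2 and 3). With the block and without any 1 replicate number 0 probe sets, 0 members and 0 other pathway genes passed, with 1 residual degree of freedom. The count of 2 other pathway genes became 5 with the block, 4 with the random block and 1 at 0.01, and ranged from 0 to 1 without 1 sample. Of the 37 members, 24 kept the sign of their difference in every setting. The other 13 did not keep it in 36 of 626 gene and setting combinations, always with both values short of the threshold. These include Hpx, whose difference became 0 after renewed quantile normalization and was not reversed there. The fixed replicate block changed no call of a member other than those of Slc39a8, Fbxl5, Lcn2 and Blvrb. With the random block Cp passed (limma adjusted p = 0.0498) and Lcn2 did not (0.119), so the genes called depended on how the pairing was modelled. How far changes near 6.35 or 14.02, the ends of the range, are compressed was not tested.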

Other observations

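Steap4, a metalloreductase of the iron transport list, was chosen for mention after its values were seen. It stood at 10.95, 10.75 and 10.65 in BMP2 samples, against 11.55, 11.34 and 10.97 in controls. The groups did not overlap, and the difference of -0.50 ± 0.17 (SE) had a limma adjusted p of 0.312, or 0.0752 with the replicate block. Bach1, a haem-binding repressor of Hmox1, averaged 8.76 ± 0.03 in BMP2 and 8.63 ± 0.09 in control samples (SD, n = 3 each), a difference of 0.14 with an adjusted p of 0.355. Hjv, the BMP co-receptor hemojuvelin, averaged 8.58 ± 0.18 in BMP2 and 7.92 ± 0.06 in control samples (SD, n = 3 each), a difference of 0.65 with an adjusted p of 0.0645, or 0.0705 with the block.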
